A study of Mus musculus with 12 samples.

Results

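Fibronectin, the matricellular proteins and the components of elastic fibres make up the adhesive and elastic parts of the extracellular matrix (ECM). Here 10 of the 52636 genes listed in the deposited tables are described: Fn1, Tnc, Postn, Sparc, Spp1, Thbs1, Thbs2, Eln, Fbn1 and Fbln5. They were taken by symbol, each has a single row in both tables, and all 10 passed the filter on low values in both cell types. Bulk RNA-seq covered 12 libraries of cultured mouse cells in 4 groups of 3, namely SMCs treated with Scr, SMCs treated with siKlf4, PDGFR-β+ cells treated with Scr and PDGFR-β+ cells treated with siKlf4. The question was how lowering Klf4, which encodes a Kruppel-like transcription factor, changes ECM transcripts in SMCs and in PDGFR-β+ mesenchymal cells, the group of lung cells that holds fibroblasts and pericytes.

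The SMCs are a commercial culture, named airway SMCs in the sample titles and tracheal SMCs as the source, of the C57BL/6 strain. The PDGFR-β+ cells came from lungs of mice aged 12 weeks, also labelled C57BL/6 and of WT genotype, and were sorted and then grown in culture. The study instead describes such cells as carrying a ZsGreen reporter switched on by a tamoxifen-inducible Cre recombinase under the Pdgfrb promoter, and the labels name sorts by reporter and by antibody, so which sort gave these libraries could not be settled. Scr is a scrambled control RNA, siKlf4 a small interfering RNA against Klf4, and every library, controls included, had gone through transfection and days of culture. Each value is in TPM (transcripts per 1000000), which divides by transcript length and fixes the total of each library, so that levels of different genes can be compared, and which holds no record of depth.

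Background on these genes is well established. Fibronectin is assembled by integrins into fibrils on which other matrix proteins are laid down. Matricellular proteins (tenascin-C, periostin, SPARC, osteopontin and the thrombospondins) are secreted into the matrix and act on cells and growth factors rather than bearing load. Elastic fibres are built from tropoelastin on a scaffold of fibrillin microfibrils, with fibulins guiding assembly and lysyl oxidases forming the crosslinks, and in the lung they provide recoil.

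Klf4 was lower in each siKlf4 library, which checks the labels. It measured between 89.6 and 96.3 TPM in Scr-treated SMCs and between 16.3 and 26.5 TPM after siKlf4, and between 134 and 146 TPM in Scr-treated PDGFR-β+ cells and between 12.3 and 13.8 TPM after siKlf4. Among markers of each cell type, the smooth muscle genes summed to between 1509 and 2299 TPM in Scr-treated SMCs and to between 5577 and 6428 TPM in Scr-treated PDGFR-β+ cells, so these markers do not set the cultured SMCs above the PDGFR-β+ cells, and Des averaged 2.77 TPM in the former and 2.08 TPM in the latter. Pdgfrb averaged 214 TPM in Scr-treated SMCs and 447 TPM in Scr-treated PDGFR-β+ cells, so both populations carry the receptor transcript. The 7 mesenchyme markers that include it summed to between 3427 and 3550 TPM in Scr-treated SMCs and between 2533 and 2636 TPM after siKlf4 (none rose and 2 fell), and to between 2858 and 3545 TPM and between 2070 and 2897 TPM in PDGFR-β+ cells (none rose and 3 fell). The 5 endothelial markers summed to between 1.34 and 2.65 TPM in Scr-treated SMCs and between 3.54 and 4.02 TPM after siKlf4, without overlap, and Kdr, the 1 of them tested there, rose (log2 fold change 1.22, adjusted p = 0.00234, limma). In PDGFR-β+ cells they summed to between 15.3 and 18.4 TPM with Scr and between 14.1 and 16.2 TPM with siKlf4, mostly Kdr, and of 2 tested Tek rose (0.60, adjusted p = 0.0212, limma). Their part in the results below was not tested. Epithelial markers summed to at most 1.10 TPM in any library, and Pecam1 and Epcam averaged under 1 TPM in every group. In SMCs 1 Scr and 1 siKlf4 library carry no replicate number and a differing column name. SMC values below are given with the unnumbered library first and replicates 2 and 3 after it, and those of PDGFR-β+ cells as replicates 1 to 3.

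Promoter windows from RefSeq (GRCm38.p6) matched 7 of the 10 genes. They are printed for the 4 of these 7 with the largest log2 fold changes after siKlf4 in PDGFR-β+ cells, given below: Fbn1 and Thbs2, which fell, and Tnc and Fbln5, which rose. Each window of 300 bases runs 5′ to 3′ on the strand of the gene, from 250 bases before the start site, and capitals mark the letters CACCC (a KLF box) and GGGCGG (a GC box) on either strand. The windows are chr2:125506389-125506688 (reverse strand) for Fbn1, chr17:14694213-14694512 (reverse strand) for Thbs2, chr4:64046966-64047265 (reverse strand) for Tnc and chr12:101819070-101819369 (reverse strand) for Fbln5.
Fbn1: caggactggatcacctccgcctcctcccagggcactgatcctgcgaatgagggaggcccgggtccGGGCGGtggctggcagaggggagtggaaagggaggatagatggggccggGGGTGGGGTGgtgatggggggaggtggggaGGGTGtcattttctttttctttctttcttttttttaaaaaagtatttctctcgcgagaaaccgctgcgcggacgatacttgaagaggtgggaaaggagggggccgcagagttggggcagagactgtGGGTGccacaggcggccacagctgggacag
Thbs2: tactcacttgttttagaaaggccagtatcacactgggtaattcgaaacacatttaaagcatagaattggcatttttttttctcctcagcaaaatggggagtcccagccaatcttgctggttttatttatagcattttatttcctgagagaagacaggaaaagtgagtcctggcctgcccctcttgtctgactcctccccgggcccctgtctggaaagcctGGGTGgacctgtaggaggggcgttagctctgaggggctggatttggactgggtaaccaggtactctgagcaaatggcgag
Tnc: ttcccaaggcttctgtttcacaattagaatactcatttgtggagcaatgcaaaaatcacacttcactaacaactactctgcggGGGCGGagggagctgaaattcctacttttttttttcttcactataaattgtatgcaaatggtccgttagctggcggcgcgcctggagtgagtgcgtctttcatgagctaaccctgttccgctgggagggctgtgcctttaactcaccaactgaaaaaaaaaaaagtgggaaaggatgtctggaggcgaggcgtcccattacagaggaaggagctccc
Fbln5: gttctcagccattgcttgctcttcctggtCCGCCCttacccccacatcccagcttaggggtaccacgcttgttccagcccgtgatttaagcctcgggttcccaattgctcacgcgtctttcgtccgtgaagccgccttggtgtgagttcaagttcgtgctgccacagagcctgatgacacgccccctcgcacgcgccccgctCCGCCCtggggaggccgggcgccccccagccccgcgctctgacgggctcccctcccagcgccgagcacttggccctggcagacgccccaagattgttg
The Fbn1 window held 4 KLF boxes and 1 GC box, the Thbs2 window 1 KLF box and no GC box, the Tnc window no KLF box and 1 GC box, and the Fbln5 window no KLF box and 2 GC boxes. The remaining windows, those of Postn, Sparc and Spp1, held 1 KLF box in all, in Sparc, where it overlapped a CAGACA match. A KLF box was thus present in 3 of 7 windows, against 57.5% of all 32851 promoter windows, and a GC box in 3 of 7, against 35.7%. CAGACA (a SMAD motif) stood in 4 of 7 windows against 21.0% of all, TATAAA in 4 of 7 against 13.6%, and TGANTCA (AP-1) and GGAATG (TEAD) in 0 of 7 against 7.81% and 14.7%. These are matches of letters on either strand and not measured binding sites. Tnc, Postn, Spp1 and Fbln5 have 2 windows each, and only the window nearest the first start annotated by GENCODE was searched. A motif in the other window of these genes is not counted, while the shares of all windows cover every window. The Fbn1 and Sparc windows lie 1555 and 3103 bases inside the first start annotated by GENCODE, so they cover a downstream start of each gene. Fn1, Thbs1 and Eln have no window in the table.

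**Figure D1:**
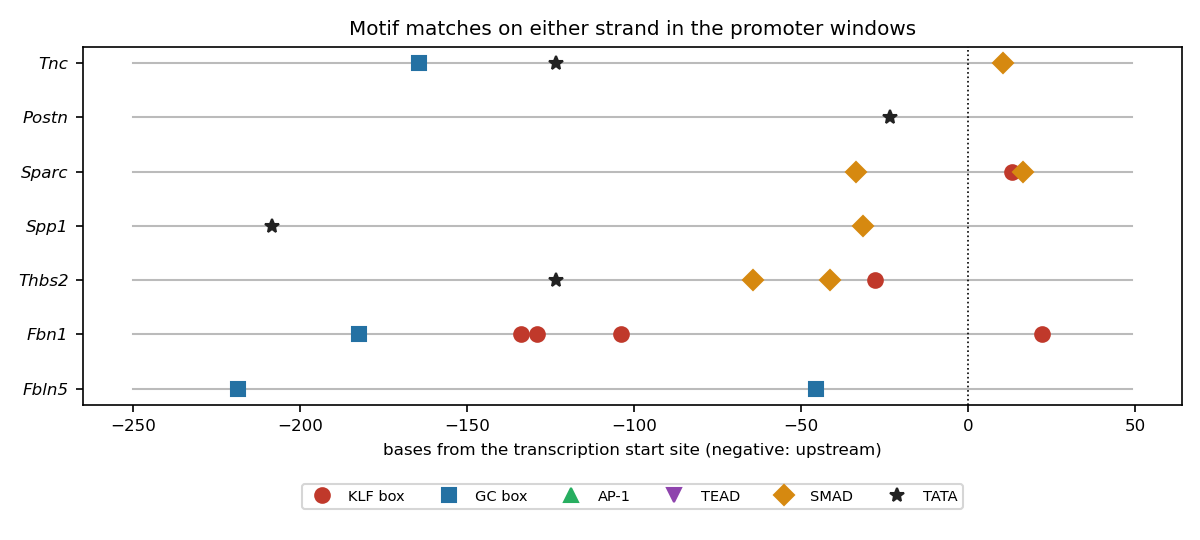
Positions of the 6 motifs in the 7 promoter windows, in bases from the start site on the horizontal axis, with 1 line per gene. The 4 KLF boxes of Fbn1 lie between positions -136 and -102 and at 20 to 24. The windows searched for Tnc, Postn, Spp1 and Fbln5, 1 of 2 for each, show none.

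At baseline the 10 genes spanned a wide range of levels in both cell types, with Fn1, Thbs1 and Sparc among the most abundant transcripts of each and Eln low. In Scr-treated SMCs the order of mean levels was Spp1 (4877 ± 132 TPM, SD, n = 3), Fn1 (4097 ± 729 TPM), Thbs1 (3685 ± 240 TPM), Sparc (2234 ± 111 TPM), Tnc (986 ± 224 TPM), Fbn1 (258 ± 18.2 TPM), Thbs2 (142 ± 18.8 TPM), Fbln5 (113 ± 15.4 TPM), Postn (40.9 ± 17.2 TPM) and Eln (6.16 ± 0.244 TPM). The ranges of Spp1 and Fn1, of Fn1 and Thbs1, and of Thbs2 and Fbln5 overlapped, and the other neighbours in that order did not. Spp1, Fn1, Thbs1 and Sparc ranked 12, 15, 17 and 34 among the 13709 genes tested in SMCs, while Postn ranked 4242 and Eln 10442.

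In Scr-treated PDGFR-β+ cells the order was Fn1 (6282 ± 470 TPM, SD, n = 3), Thbs1 (4979 ± 530 TPM), Sparc (3291 ± 224 TPM), Thbs2 (669 ± 111 TPM), Fbn1 (490 ± 73.9 TPM), Postn (460 ± 102 TPM), Spp1 (395 ± 24.6 TPM), Fbln5 (345 ± 23.6 TPM), Tnc (343 ± 40.0 TPM) and Eln (14.2 ± 0.613 TPM). Neighbours from Thbs2 to Spp1 overlapped in turn, as did Fbln5 and Tnc. Fn1 ranked 6, Thbs1 10, Sparc 19 and Eln 7955 among 13694 genes. Eln was the lowest of the 10 in both cell types, with its scaffold gene Fbn1 far above it.

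Levels were not tested across the cell types, since the tables were made separately, and are set side by side. Mean Spp1 was 12.3 times and mean Tnc 2.87 times as high in Scr-treated SMCs as in Scr-treated PDGFR-β+ cells. Postn was 11.2 times, Thbs2 4.70 times, Fbln5 3.05 times, Eln 2.30 times, Fbn1 1.90 times, Fn1 1.53 times, Sparc 1.47 times and Thbs1 1.35 times as high in PDGFR-β+ cells. The Scr libraries of the 2 cell types did not overlap for any of the 10. All these genes share the same 6 libraries, and the part of culture, source and table in the gap between the cell types cannot be told apart.

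**Figure D2:**
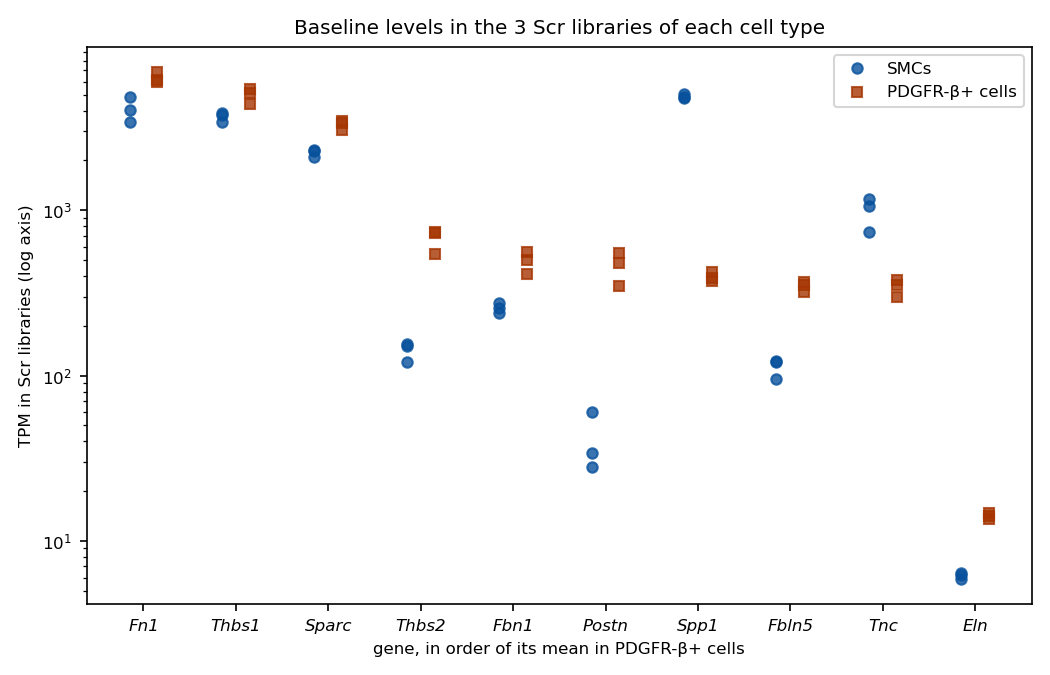
TPM of the 10 genes in the 3 Scr libraries of SMCs (circles) and of PDGFR-β+ cells (squares), on a log axis, in order of the mean in PDGFR-β+ cells. Spp1 and Tnc lie higher in SMCs and the other 8 genes lie higher in PDGFR-β+ cells, with the widest gaps at Spp1 and Postn.

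After siKlf4, 5 of the 10 genes passed the test in SMCs, as did 7 in PDGFR-β+ cells. Those of the SMCs were 4 of 10 higher (Tnc, Sparc, Spp1 and Thbs1) and 1 lower (Eln) past a threshold of 0.05 on the adjusted p (two-sided limma test of log2(TPM + 1), Benjamini-Hochberg over all genes tested). Among all genes tested in SMCs 15.6% were higher and 12.9% lower. Without the unnumbered Scr library, 3 of the 10 were lower in SMCs, with Fbn1 (-0.23, adjusted p = 0.0362) and Fbln5 (-0.33, adjusted p = 0.0346) beside Eln. For PDGFR-β+ cells the count was 3 of 10 higher (Tnc, Spp1 and Fbln5), where 25.3% of all genes were, and 4 lower (Thbs1, Thbs2, Eln and Fbn1), where 15.3% were. The siKlf4 and Scr libraries did not overlap for 6 of 10 genes in SMCs, against 47.1% of all genes, and for 7 of 10 in PDGFR-β+ cells, against 53.8%. The median log2 fold change of the 10 was 0.19 in SMCs and -0.16 in PDGFR-β+ cells, beside 0.02 and 0.10 for all genes tested. Median-ratio scaling moved the latter median to -0.0037, and no called gene of the 10 changed direction with it. The 10 genes summed to between 1.61% and 1.67% of all TPM in Scr-treated SMCs and to between 2.19% and 2.26% after siKlf4. In PDGFR-β+ cells the sum was between 1.57% and 1.86% with Scr and between 1.23% and 1.53% with siKlf4. The groups of each cell type did not overlap in that sum, which rose in SMCs and fell in PDGFR-β+ cells and was not tested. The abundant genes weigh most in it. Mean Thbs1 went from 3685 to 6680 TPM in SMCs and from 4979 to 2088 TPM in PDGFR-β+ cells. In bulk RNA, fewer cells of a type and less RNA per cell cannot be told apart.

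**Figure D3:**
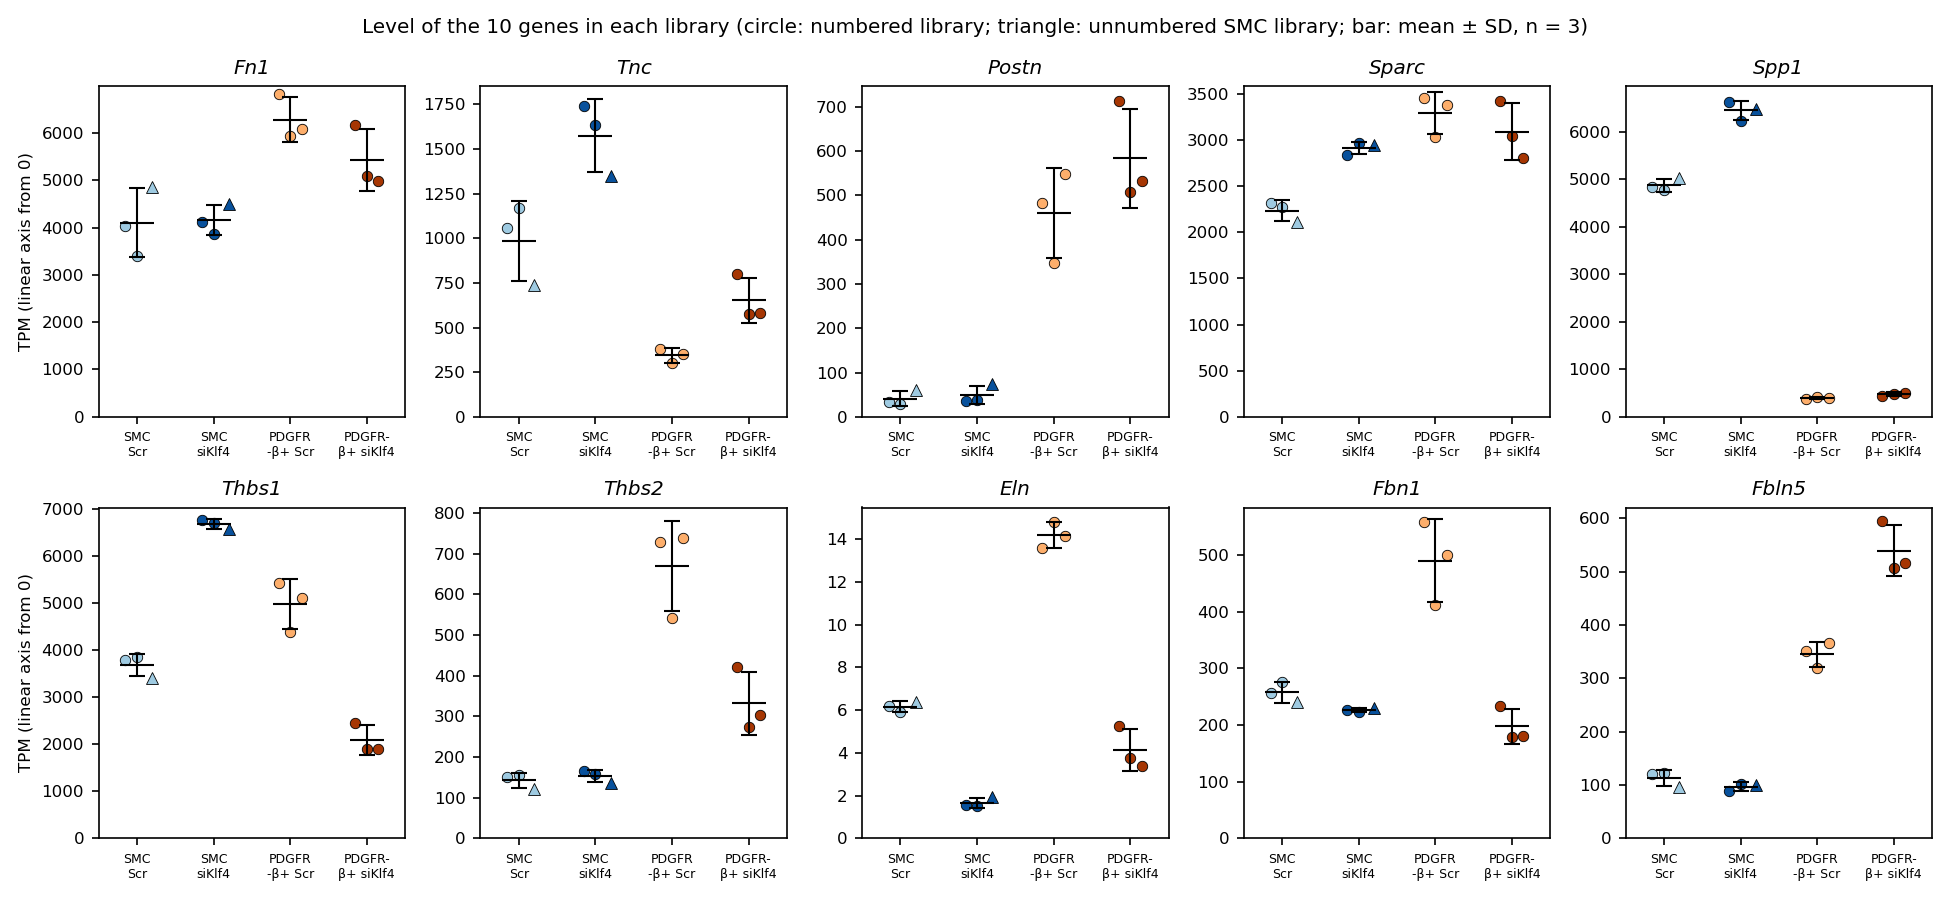
TPM of each gene in each library, on linear axes from 0, with 1 panel per gene; bars give the mean and SD of 3 libraries, circles are numbered libraries and triangles the SMC libraries without a number. Thbs1 rises in SMCs and falls in PDGFR-β+ cells, Eln falls in both, and Spp1 in PDGFR-β+ cells stays near the floor of an axis set by the SMCs.

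Fibronectin was the most abundant of these transcripts in PDGFR-β+ cells and did not pass the test in either cell type. Fn1 (ENSMUSG00000026193.15, chr1:71585520-71653200, reverse strand, mm10) measured 4859, 4023 and 3407 TPM in Scr-treated SMCs and 4507, 4117 and 3866 TPM after siKlf4, and the groups overlapped (log2 fold change 0.04, 95% CI -0.28 to 0.35, adjusted p = 0.861, limma). PDGFR-β+ cells gave 6818, 5940 and 6089 TPM with Scr, against 6171, 5096 and 4988 TPM with siKlf4. The highest siKlf4 library lay within the Scr range while the others lay below it (log2 fold change -0.22, 95% CI -0.46 to 0.03, adjusted p = 0.138, limma). With median-ratio scaling this value was -0.33 and passed the threshold (adjusted p = 0.031), as did the -0.31 found once siKlf4 replicate 1 was left out (adjusted p = 0.0385).

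Tenascin-C, a large anti-adhesive glycoprotein of remodelling tissue, rose in both cell types. Tnc (ENSMUSG00000028364.15, chr4:63959785-64047015, reverse strand) measured 736, 1055 and 1167 TPM in Scr-treated SMCs and 1346, 1740 and 1635 TPM after siKlf4. Every siKlf4 value was above every Scr value, and the unnumbered library was the lowest of each group. The ratio of the means was 1.60 (log2 fold change 0.69, SE 0.18, adjusted p = 0.0287, limma), and without any 1 of 3 libraries (Scr replicate 2 and siKlf4 replicates 2 and 3) the adjusted p was between 0.0562 and 0.092. In PDGFR-β+ cells Tnc measured 377, 299 and 353 TPM with Scr, against 798, 574 and 583 TPM with siKlf4. Here too the groups were apart, with a ratio of 1.90 (log2 fold change 0.91, SE 0.15, adjusted p = 0.00237, limma). The effect did not differ detectably between the cell types (difference -0.22, 95% CI -0.78 to 0.34).

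Periostin, which binds collagen and integrins and marks activated fibroblasts, did not pass the test in either cell type. Postn (ENSMUSG00000027750.16, chr3:54361109-54391037, forward strand) measured 60.4, 34.2 and 28.1 TPM in Scr-treated SMCs and 73.9, 36.3 and 38.3 TPM after siKlf4. The unnumbered library was the highest of each group, so that the spread between libraries of a group exceeded the difference between groups (log2 fold change 0.27, 95% CI -0.55 to 1.09). With a term for the naming of the columns the same value had an adjusted p of 0.0471 (limma). The 4 numbered libraries alone gave 0.26 (adjusted p = 0.145). In PDGFR-β+ cells Postn measured 482, 348 and 549 TPM with Scr, against 712, 507 and 532 TPM with siKlf4, and the groups overlapped (log2 fold change 0.35, 95% CI -0.09 to 0.80, adjusted p = 0.176, limma).

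SPARC, a collagen-binding glycoprotein of the cell surroundings, rose in SMCs. Sparc (ENSMUSG00000018593.13, chr11:55394500-55423183, reverse strand) measured 2108, 2318 and 2277 TPM in Scr-treated SMCs and 2943, 2838 and 2962 TPM after siKlf4, and the groups did not overlap (ratio 1.30, log2 fold change 0.38, SE 0.07, adjusted p = 0.00694, limma). In PDGFR-β+ cells it measured 3457, 3036 and 3379 TPM with Scr, against 3418, 3046 and 2807 TPM with siKlf4. These groups overlapped (log2 fold change -0.09, 95% CI -0.32 to 0.13, adjusted p = 0.468, limma). The effect in SMCs exceeded that in PDGFR-β+ cells by 0.48 on the log2 scale (SE 0.12, adjusted p = 0.00893 for the interaction term in limma).

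Osteopontin, a secreted phosphoprotein that binds integrins and CD44, was the most abundant of the 10 in SMCs and rose in both cell types. Spp1 (ENSMUSG00000029304.14, chr5:104435118-104441050, forward strand) measured 5026, 4832 and 4773 TPM in Scr-treated SMCs and 6480, 6641 and 6242 TPM after siKlf4 (ratio 1.32, log2 fold change 0.40, SE 0.07, adjusted p = 0.00579, limma). In PDGFR-β+ cells it measured 374, 422 and 389 TPM with Scr, against 444, 486 and 511 TPM with siKlf4. The groups were apart in both cell types, and the ratio in PDGFR-β+ cells was 1.22 (log2 fold change 0.28, SE 0.08, adjusted p = 0.0257, limma). That call was lost with median-ratio scaling (log2 fold change 0.17, adjusted p = 0.17), with no filter (adjusted p = 0.0576) and without any 1 of 4 libraries (Scr replicates 1 and 3 and siKlf4 replicates 2 and 3, adjusted p 0.0618 to 0.0943). In SMCs the call was lost with no filter on low values (adjusted p = 0.148), as was that of Sparc (adjusted p = 0.0643) and of Tnc (adjusted p = 0.0812). Spp1 is also a macrophage transcript. The 6 macrophage markers summed to between 4.68 and 7.19 TPM in Scr-treated and between 4.44 and 6.51 TPM in siKlf4-treated SMCs, and to between 28.7 and 29.9 TPM and between 18.7 and 22.8 TPM in PDGFR-β+ cells. The summed markers were lower in siKlf4-treated than in Scr-treated PDGFR-β+ cells, where Lyz2 gave most of the sum. The leukocyte gene Ptprc and the macrophage genes Adgre1 and Itgam averaged under 1 TPM in every group. Cd68 averaged 3.26 TPM with Scr and 3.77 TPM with siKlf4 in SMCs, and 7.56 and 8.77 TPM in PDGFR-β+ cells, not past the test. Csf1r averaged 2.28 TPM with Scr and 0.775 TPM with siKlf4 in PDGFR-β+ cells. The part of macrophages in the Spp1 values was not tested.

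Thrombospondin 1, a trimeric glycoprotein that activates latent TGF-β and binds CD36 and CD47, moved in opposite directions. Thbs1 (ENSMUSG00000040152.8, chr2:118111876-118127133, forward strand) measured 3411, 3789 and 3856 TPM in Scr-treated SMCs and 6568, 6768 and 6706 TPM after siKlf4. The libraries of a group lay close together and the groups far apart, with a ratio of 1.81 (log2 fold change 0.86, SE 0.07, adjusted p = 9.7e-04, limma). In PDGFR-β+ cells it measured 5430, 4395 and 5112 TPM with Scr, against 2457, 1902 and 1905 TPM with siKlf4. Each siKlf4 library was below each Scr library, with 41.9% of the Scr mean left (log2 fold change -1.26, SE 0.13, adjusted p = 3.1e-04, limma). The effects differed by 2.12 on the log2 scale (95% CI 1.78 to 2.46, adjusted p = 4.9e-06 for the interaction term). With Scr, Thbs1 was the lower in SMCs, and after siKlf4 it was the lower in PDGFR-β+ cells. Within a library, the ratio of Thbs1 to Fn1 was between 0.702 and 1.13 with Scr and between 1.46 and 1.73 with siKlf4 in SMCs, and between 0.740 and 0.839 with Scr and between 0.373 and 0.398 with siKlf4 in PDGFR-β+ cells. Such a ratio does not depend on the scaling of the library.

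Thrombospondin 2, its relative that lacks the sequence used to activate latent TGF-β, fell in PDGFR-β+ cells. Thbs2 (ENSMUSG00000023885.8, chr17:14665500-14694235, reverse strand) measured 728, 541 and 739 TPM with Scr, against 420, 274 and 303 TPM with siKlf4 in these cells, with 49.6% of the Scr mean left (log2 fold change -1.02, SE 0.18, adjusted p = 0.00393, limma). In SMCs it measured 121, 151 and 155 TPM with Scr, against 137, 164 and 158 TPM with siKlf4. The SMC groups overlapped, with the unnumbered library lowest in each (log2 fold change 0.11, 95% CI -0.17 to 0.39, adjusted p = 0.517, limma). The effects differed between the cell types by 1.13 (SE 0.24, adjusted p = 0.00397, interaction term). The ratio of Thbs1 to Thbs2 within a library was between 24.8 and 28.3 in Scr-treated SMCs and between 41.2 and 48.1 after siKlf4, while in PDGFR-β+ cells it was between 6.91 and 8.13 with Scr and between 5.84 and 6.95 with siKlf4, and there the groups overlapped.

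Elastin, the extensible core of the elastic fibre, fell in both cell types. Eln (ENSMUSG00000029675.12, chr5:134702593-134747323, reverse strand) measured 6.38, 6.21 and 5.90 TPM in Scr-treated SMCs and 1.93, 1.54 and 1.51 TPM after siKlf4, with 26.9% of the Scr mean left (log2 fold change -1.43, SE 0.12, adjusted p = 9.97e-04, limma). In PDGFR-β+ cells it measured 13.6, 14.8 and 14.1 TPM with Scr, against 5.25, 3.75 and 3.37 TPM with siKlf4, with 29.1% left (log2 fold change -1.58, SE 0.15, adjusted p = 2.1e-04, limma). Every siKlf4 library was below every Scr library in each cell type. The effects differed by 0.15 (95% CI -0.26 to 0.56, adjusted p = 0.577), and the log2(TPM + 1) scale understates the change of a gene at this level. In SMCs, values this low mean that a filter at 5 TPM leaves Eln untested.

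Fibrillin 1, the main protein of the microfibrils on which elastin is laid down, fell in PDGFR-β+ cells. Fbn1 (ENSMUSG00000027204.13, chr2:125300594-125507993, reverse strand) measured 559, 412 and 500 TPM with Scr, against 234, 180 and 181 TPM with siKlf4 in these cells, with 40.4% of the Scr mean left (log2 fold change -1.30, SE 0.14, adjusted p = 4.4e-04, limma). In SMCs it measured 240, 257 and 276 TPM with Scr, against 230, 227 and 223 TPM with siKlf4. The SMC groups did not overlap, but the gap was narrow and did not pass the threshold (log2 fold change -0.18, SE 0.07, adjusted p = 0.0918, limma). Using the 4 numbered libraries alone, the value was -0.24 (adjusted p = 0.033). The effects differed between the cell types by 1.12 (SE 0.17, adjusted p = 5.1e-04, interaction term). Mean Fbn1, 1.90 times as high in PDGFR-β+ cells with Scr, came to 198 TPM there and 227 TPM in SMCs after siKlf4.

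Fibulin 5, which binds tropoelastin and lysyl oxidase-like enzymes and is needed for elastic fibre assembly, rose in PDGFR-β+ cells, opposite to Eln and Fbn1. Fbln5 (ENSMUSG00000021186.9, chr12:101746565-101819055, reverse strand) measured 351, 319 and 366 TPM with Scr, against 595, 507 and 517 TPM with siKlf4, and the groups were apart (ratio 1.56, log2 fold change 0.64, SE 0.09, adjusted p = 0.0012, limma). In SMCs it measured 95.5, 121 and 123 TPM with Scr, against 100.2, 87.9 and 103 TPM with siKlf4. The SMC groups overlapped through the unnumbered Scr library, the lowest of its group (log2 fold change -0.22, 95% CI -0.49 to 0.06, adjusted p = 0.203, limma). Among the 4 numbered SMC libraries the value was -0.36 (adjusted p = 0.0418), and without the unnumbered Scr library it was -0.33 (adjusted p = 0.0346). The effects differed by -0.86 (SE 0.15, adjusted p = 0.00137, interaction term). Within a library, the ratio of Fbn1 to Fbln5 was between 1.29 and 1.59 in Scr-treated PDGFR-β+ cells and between 0.350 and 0.393 after siKlf4, and between 2.12 and 2.58 over all 6 SMC libraries.

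**Figure D4:**
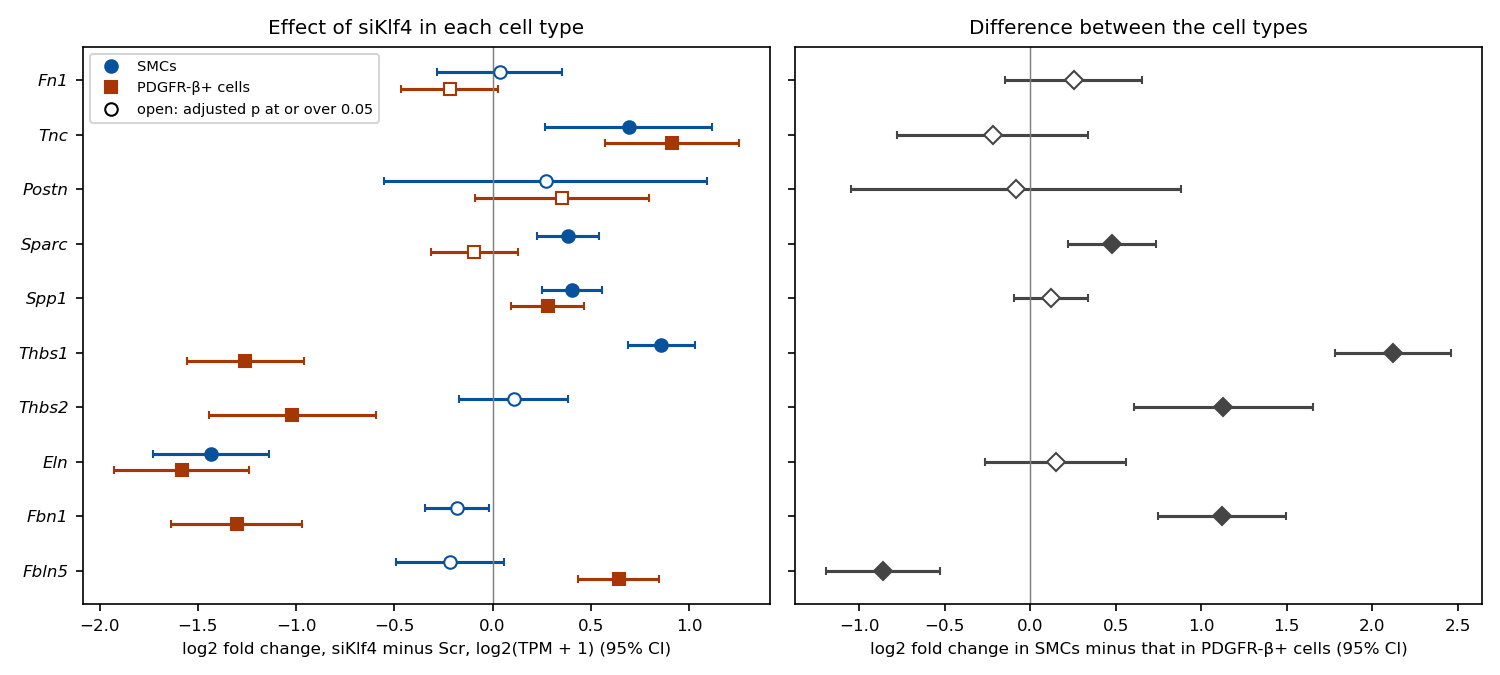
Log2 fold change of each gene after siKlf4 in SMCs (circles) and PDGFR-β+ cells (squares) on the left, and the difference between those effects (diamonds) on the right, with 95% CI from limma; filled symbols have an adjusted p under 0.05. Thbs1, Thbs2, Fbn1, Sparc and Fbln5 have filled diamonds, and Fbln5 is the only one of these on the negative side.

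By the interaction term, SMCs and PDGFR-β+ cells differed in their response to siKlf4 for 5 of 10 genes. Its sign was positive, with the higher value in SMCs, for 4 (Sparc, Thbs1, Thbs2 and Fbn1), against 14.5% of 13032 genes, and negative for 1 (Fbln5), against 18.5%. For Fn1, Tnc, Postn, Spp1 and Eln no difference was detected. The knockdown itself was less deep in SMCs, with 21.9% of mean Klf4 left against 9.16% in PDGFR-β+ cells, and its part in these differences was not tested. The smooth muscle markers moved with siKlf4 too. Their sum rose to between 3432 and 4204 TPM in SMCs, where 7 of 8 passed the test upwards, and fell to between 4736 and 5039 TPM in PDGFR-β+ cells, where 3 passed upwards and 3 downwards. Their part in the changes of the 10 genes was not tested. Restricting SMCs to the 4 numbered libraries, 7 of 10 genes passed the test (4 rose and 3 fell).

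The partners of the elastic fibre were lower after siKlf4 in PDGFR-β+ cells for the most part. Of 16 tested, 12 fell and 1 rose, with a median log2 fold change of -0.88. In SMCs 6 fell and none rose, with a median of -0.24, and the effects differed between the cell types for 9. Of all genes tested, 15.3% fell and 25.3% rose in PDGFR-β+ cells, 12.9% fell and 15.6% rose in SMCs, and the effect was higher in SMCs for 14.5% and lower for 18.5%. The 1 that rose in PDGFR-β+ cells, Fbn2, was named after its values were seen, and none of the list rose there once siKlf4 replicate 1 or 3 or any 1 Scr replicate was left out. Lox, the lysyl oxidase that crosslinks elastin and collagen, measured between 2049 and 3219 TPM in Scr-treated and between 295 and 441 TPM in siKlf4-treated PDGFR-β+ cells (log2 fold change -2.97, SE 0.21, adjusted p = 6.0e-05, limma). Fbln2, a fibulin that binds fibronectin and fibrillin, fell from between 1816 and 2040 TPM to between 315 and 374 TPM (log2 fold change -2.50, SE 0.09, adjusted p = 5.4e-06, limma). Neither Lox (-0.10) nor Fbln2 (-0.11) passed the test in SMCs, and both effects differed between the cell types (interaction term, adjusted p = 1.9e-05 and 3.1e-05). From the numbered SMC libraries alone, Lox was -0.258 and passed the threshold (adjusted p = 0.0379, limma), while Fbln2 was -0.125 (adjusted p = 0.141, limma). In SMCs the largest falls of this list were those of Efemp1, the gene of fibulin 3 (log2 fold change -1.25, adjusted p = 0.00387), and Mfap5, a microfibril glycoprotein gene (-1.15, adjusted p = 0.00493), and for neither did the effect differ detectably from that in PDGFR-β+ cells. When only numbered SMC libraries were used, 10 of 16 fell and 1 rose.

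Other matricellular genes moved both ways in SMCs and fell in PDGFR-β+ cells where they passed the test. In SMCs 4 of 12 tested rose and 6 fell (median -0.68), and in PDGFR-β+ cells none of 11 rose and 7 fell (median -0.52). Among all genes the shares were 15.6% and 12.9% in SMCs, and 25.3% and 15.3% in PDGFR-β+ cells. The effects differed between the cell types for 5. Without 1 SMC library in turn, 3 or 4 rose and between 4 and 6 fell. The numbered SMC libraries alone gave 4 that rose and 7 that fell. Leaving out 1 PDGFR-β+ library in turn, none rose and between 6 and 8 fell. Wisp2, a gene of the CCN family, had the largest fall in PDGFR-β+ cells, from between 393 and 483 TPM to between 39.1 and 70.5 TPM (log2 fold change -3.14, SE 0.22, adjusted p = 5.5e-05, limma). Tnxb, the gene of tenascin-X, fell in PDGFR-β+ cells (log2 fold change -2.45, adjusted p = 3.8e-05) and in SMCs (-1.68, adjusted p = 0.00299), opposite in direction to Tnc, its relative. Smoc2, a relative of Sparc, fell in SMCs (-1.57, adjusted p = 0.00616). The 4 that rose in SMCs, named after their values were seen, were Cyr61 (0.83), Ctgf (1.26), Wisp1 (1.27) and Tgfbi (1.09), the first 3 of the CCN family of growth factor-binding proteins and the last a collagen- and integrin-binding protein. In PDGFR-β+ cells the 3 CCN genes fell (-0.34, -0.27 and -0.45), Tgfbi did not pass the test (0.03), and for all 4 the effect differed between the cell types.

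Of the receptors for these proteins, 6 of 12 tested rose and none fell in SMCs (median 0.30), where 15.6% of all genes rose and 12.9% fell. In PDGFR-β+ cells 2 rose and 5 fell (median -0.05), where 25.3% of all genes rose and 15.3% fell. The effects differed for 9 of 12, beside 14.5% of all genes with the higher effect in SMCs and 18.5% with the lower. Leaving out 1 SMC library in turn, between 4 and 6 rose (4 without siKlf4 replicate 2) and none fell. The numbered SMC libraries alone gave 5 that rose and none that fell. In PDGFR-β+ cells 2 rose and 4 or 5 fell without 1 library in turn. Itga5, the α subunit of the main fibronectin receptor, rose in SMCs from between 131 and 176 TPM to between 365 and 400.5 TPM (log2 fold change 1.27, SE 0.12, adjusted p = 0.00104, limma) and measured 220 and 216 TPM on average in PDGFR-β+ cells (-0.01). Itga4, a subunit of receptors for fibronectin and osteopontin, rose in SMCs at a low level (from a mean of 0.622 to 2.43 TPM, adjusted p = 0.0306). Itgb5, the partner of the αv subunit in a vitronectin receptor, fell in PDGFR-β+ cells (-0.65, adjusted p = 0.00102), and Itgb8, the partner in a receptor for latent TGF-β, rose from a mean of 0.718 to 2.07 TPM (adjusted p = 0.00475).

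Of 10 genes of TGF-β signalling, which induces much of this matrix, 4 rose and none fell in SMCs (median 0.15), and 3 rose and 5 fell in PDGFR-β+ cells (median -0.05). All genes gave 15.6% higher and 12.9% lower in SMCs, and 25.3% higher and 15.3% lower in PDGFR-β+ cells, so that the share that rose in the latter was near that of all genes. The effects differed for 2 of 10, a smaller share than the 14.5% and 18.5% of all genes together. Tgfb1, a TGF-β ligand, measured between 19.8 and 27.5 TPM in Scr-treated SMCs and between 40.6 and 52.4 TPM after siKlf4 (log2 fold change 0.93, SE 0.15, adjusted p = 0.00559, limma). In PDGFR-β+ cells it fell from between 48.8 and 51.0 TPM to between 27.1 and 28.2 TPM (-0.85, SE 0.07, adjusted p = 1.1e-04), and the effects differed by 1.78 (adjusted p = 2.5e-05, interaction term). Like Thbs1, it was higher in PDGFR-β+ cells with Scr and higher in SMCs after siKlf4. Tgfbr1, a receptor of TGF-β, rose in SMCs (1.06, adjusted p = 9.3e-04), with an effect that differed from that in PDGFR-β+ cells by 1.57 (adjusted p = 3.5e-05). Tgfb2, another ligand, fell in PDGFR-β+ cells (-1.04, adjusted p = 0.00143). Without 1 SMC library in turn, between 2 and 4 of this list rose and between 0 and 3 fell (2 rose without siKlf4 replicate 2 or 3, and 3 fell without the unnumbered siKlf4 library), and with only the numbered SMC libraries 4 rose and 3 fell. With median-ratio scaling or quantile normalization 1 fell in SMCs, and with the latter 3 rose there. In PDGFR-β+ cells 2 rose with either scaling and without any 1 library other than siKlf4 replicate 1. There 4 fell without Scr replicate 1 or 3, and 3 fell once siKlf4 replicate 2 or 3 was left out.

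**Figure D5:**
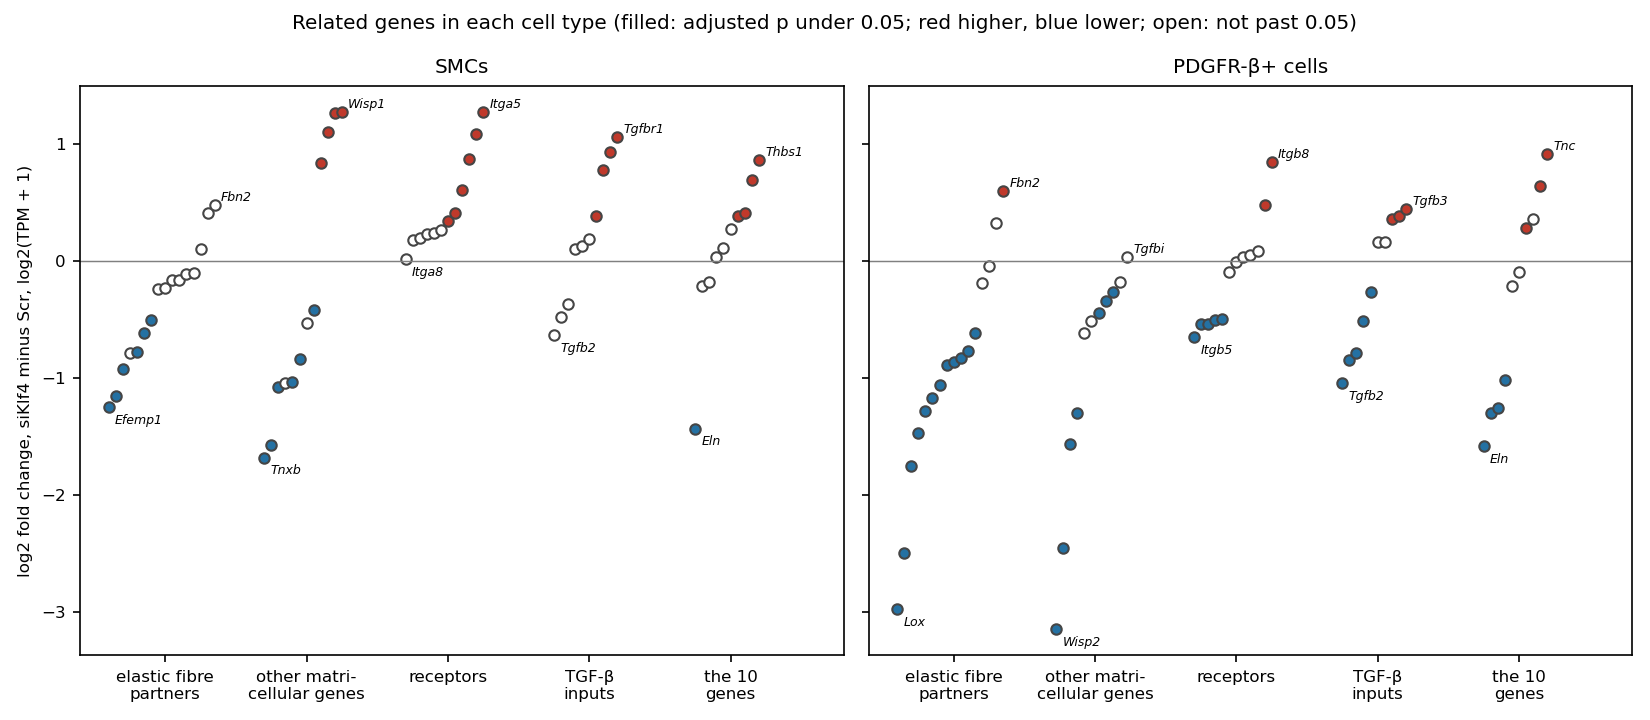
Log2 fold change after siKlf4 of each tested gene of the 4 lists and of the 10 genes, in SMCs (left) and PDGFR-β+ cells (right); each point is a gene, filled red where higher and blue where lower at an adjusted p under 0.05, and the extremes of each list are named. Receptors and TGF-β genes extend upwards in SMCs, and elastic fibre partners lie mostly below 0 in PDGFR-β+ cells, down to Lox.

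Genes with the most similar pattern were sought for each of the 10 by Pearson's r of log2(TPM + 1) over the 12 libraries, which share cell type and treatment, so that high values arise readily and are given as a description. Near to Thbs1 were Serp1 (r = 0.989) and Dnajc10 (0.981). Spp1 was followed most closely by Mmp2 (0.992), Itga3 (0.992) and Tbx2 (0.991), Postn by Lamp1 (0.990), Ptprm (0.989) and Npc1 (0.985), and Tnc by Spry2 (0.977), Irf2bpl (0.974) and Slpi (0.970). Among the elastic fibre genes, Eln was nearest to Nkain4 (0.984), Hacd4 (0.981) and Angpt4 (0.980), Fbn1 to Scpep1 (0.973), Abca2 (0.966) and Fndc1 (0.960), and Fbln5 to St7 (0.986), Dusp10 (0.985) and Ctnnd2 (0.985). The nearest to Thbs2 were Aplp1 (0.981), Grem1 (0.980) and Ulbp1 (0.980), to Sparc Adrm1 (0.961), Ska1 (0.956) and Uso1 (0.951), and to Fn1 Reep5 (0.966), Clstn1 (0.957) and Plcxd2 (0.955). None of the 10 was among the 3 nearest of another.

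The libraries were strand-specific by the study's methods, but whether strand was used in estimating abundance is not given in the sources used here, so genes that overlap the 10 in the annotation could share reads. Those on the opposite strand were at most 5.89 TPM (Apol7d with Fn1, 8030451A03Rik with Tnc, Gm9913 with Fbn1, Gm29233 with Thbs1 and Gm30003 with Eln, the last pair listed at 0 in every library). Gm42793, on the same strand as Spp1, measured between 0.237 and 9.02 TPM.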

How the data were processed

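Bulk RNA-seq of 12 libraries was analysed from TPM tables, 1 per cell type. The authors used HISAT2 to align trimmed reads to mm10 (GENCODE annotation), then StringTie and ballgown for abundance; the libraries were strand-specific, and the versions of these tools and the strand setting of the abundance step are not given in the sources used here. The deposited TPM values sum to 1000000 per library and hold no depth, so precision rests on 3 libraries per group, described as independent experiments. DESeq2, used in the study, needs counts, and was not run. The 2 SMC columns without a replicate number were matched by name to their group and to no single sample.

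Values were tested as log2(TPM + 1) with limma 3.58.1 in R 4.3.3 (lmFit, eBayes with trend) within each cell type, keeping genes whose mean reached 1 TPM, two-sided, with Benjamini-Hochberg adjustment and a threshold of 0.05. The interaction term used all 12 libraries. An exact permutation test of 3 against 3 cannot give a p below 0.1. The fits were tested on simulated data. Those values were drawn independently for each gene and library, so the check does not cover effects shared by libraries. The members and lists were chosen with earlier results of these data known. Named were all members, Klf4, per list and cell type the 2 largest changes past the threshold without overlap, and the 3 nearest genes by Pearson's r (same minimum in both cell types, no clone names). Others are marked as chosen after their values were seen or stand beside a count as its exception. Marker lists covered smooth muscle, PDGFR-β+ mesenchyme, macrophages, endothelium and epithelium. Positions follow GENCODE M21, in which 10 of 11 identifiers matched with their version. Promoters come from RefSeq (GRCm38.p6). Alternatives were pseudocount 0.1, no filter, a minimum of 5 TPM, median-ratio and quantile scaling, no trend, 1 fit for both cell types, a replicate block, a term for column naming, numbered SMC libraries alone, and each library left out; those for the lists of related genes were added after seeing the data. A gene of the TGF-β list and a gene near to Thbs1 are not reported here, and the list is counted without the former.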

Additional observations from a re-analysis of the deposited data

Results flagged for a closer look

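For 5 genes the effect of siKlf4 differed between SMCs and PDGFR-β+ cells by the interaction term of limma over 12 libraries (adjusted over all 13032 genes). The log2 fold change in SMCs minus that in PDGFR-β+ cells was 2.12 for Thbs1 (adjusted p = 4.9e-06), which rose in SMCs and fell in PDGFR-β+ cells. It was 1.13 for Thbs2 (adjusted p = 0.00397) and 1.12 for Fbn1 (adjusted p = 5.1e-04), which fell in PDGFR-β+ cells. For Sparc, which rose in SMCs, it was 0.48 (adjusted p = 0.00893). For Fbln5, which rose in PDGFR-β+ cells, it was -0.86 (adjusted p = 0.00137). Each of these 5 kept its direction and stayed past the threshold in the 9 alternatives and the 12 fits without 1 library.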

How the results depend on the processing

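With no filter on low values the number of the 10 genes past the threshold in SMCs was 2 instead of 5. The log2 fold changes were unchanged and the standard errors of Tnc, Sparc and Spp1 were larger. That fit differed in the genes it held (25992 instead of 13709), over which eBayes estimates its variance trend and the p-values are adjusted. Without 1 SMC library in turn the number of all genes called in SMCs lay between 2216 and 3563 (3910 with all), the lowest without siKlf4 replicate 2. Other totals of the 10 genes past the threshold stayed within 1.5 times. By direction, 1 of the 10 was lower in SMCs, against 3 without the unnumbered Scr library or with the numbered libraries alone. That count was 2 with a replicate block and 0 at a minimum of 5 TPM, where Eln was not tested. In SMCs 4 were higher, against 1 with no filter and 5 with the term for column naming (Postn added). Without Scr replicate 2, siKlf4 replicate 2 or siKlf4 replicate 3, the number higher there was 3. Directions turned only for values that had not passed the test. Sparc in PDGFR-β+ cells was 0.049 with quantile normalization. The difference for Eln was -0.059 with a pseudocount of 0.1 and that for Postn 0.015 with median-ratio scaling. Leaving out 1 library moved Fn1 in SMCs between -0.090 and 0.17, Postn between -0.052 and 0.58, Thbs2 between -0.0039 and 0.19, and the difference for Postn between -0.41 and 0.23; the cause was not tested. In PDGFR-β+ cells 62.3% of all called genes were higher, against 46.9% with median-ratio scaling and 49.7% with quantile normalization, and of the 10 genes 2 were then higher and 5 lower with median-ratio scaling. In the interaction, 43.9% of called genes were higher in SMCs, against 56.8% with median-ratio scaling. Over all genes tested, libraries with the same replicate number shared little deviation (correlations between -0.0158 and 0.107). In SMCs that check used the numbered libraries alone, where both replicates give the same value by construction. It does not settle pairing for the 10 genes. A term for column naming gave 5492 genes called in SMCs, against 3910. With a replicate block in PDGFR-β+ cells, the SE went from 0.146 to 0.0837 for Tnc, from 0.142 to 0.0733 for Fbn1 and from 0.147 to 0.146 for Eln. There 8 of the 10 were called (Fn1 added). In SMCs and the interaction the block was fitted over the numbered libraries alone, so 2 choices changed together. It gave 6 of the 10 in SMCs, against 7 from these libraries with no block, and 6 in the interaction (Fn1 added), against 5. TPM holds no depth, so counting error could not be given.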
